A study of Homo sapiens with 16 samples.

Results

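Gene expression with and without 5-aza-dC (decitabine), an inhibitor of DNA methylation, was examined in HCT116 cells, a human colon carcinoma cell line, with the 8 arrays of this line out of the 16 in the series. The cells had been treated for 3 days with 0.5 µM 5-aza-dC, 3 µM PJ-34 (an inhibitor of poly(ADP-ribose) polymerase, PARP) and 150 nM trichostatin A (TSA, an inhibitor of histone deacetylases), alone and in every combination. The 4 arrays whose label includes 5-aza-dC were treated with 5-aza-dC alone, with PJ-34/5-aza-dC, with 5-aza-dC/TSA and with all 3 drugs (PJ-34/5-aza-dC/TSA, the triple treatment). The 4 arrays whose label does not include it were control, PJ-34, TSA and PJ-34/TSA. Signals are given in these 2 orders below, first without and then with 5-aza-dC, and a log2 change is the mean with minus the mean without 5-aza-dC, ± its standard error from the fit. Every condition was measured on 1 array, so the comparison is 4 arrays against 4 that share the other drugs. Its p-values measure the spread left after the terms for PJ-34 and TSA. That spread takes in all interactions of the drugs, and the spread between replicate cultures of a condition was not measured. For p-values and standard errors, the spread of each probe set was combined with that of probe sets of similar mean signal. The latter had a weight of 9.81 degrees of freedom, against 4 for the probe set itself.

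5-Aza-dC is an analog of deoxycytidine that is phosphorylated in the cell and built into DNA during replication, where it traps DNA methyltransferases. Methylation of cytosine in CpG dinucleotides is then lost as the cells divide. In normal somatic tissue and in many tumors, promoters of germline genes carry this mark and the genes are silent, and in colon cancer further promoters gain it. DNA methylation itself was not measured on these arrays.

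The promoters of the 5 named genes with the largest increases that have a RefSeq entry are shown first, because they show how differently CpG dinucleotides are distributed over genes that rose. Each is the reference sequence of GRCh38.p14 from 250 bases before to 50 bases after a transcription start, taken from RefSeq and read 5′ to 3′ on the strand of the gene, with every CG in capitals. The windows lie at chrX:154295545-154295844 for TKTL1, chrX:151912224-151912523 for MAGEA4, chr14:94110486-94110785 for IFI27, chr4:41256678-41256977 for UCHL1 and chr17:40867174-40867473 for KRT12. KRT12 is on the minus strand and the other genes are on the plus strand.
TKTL1: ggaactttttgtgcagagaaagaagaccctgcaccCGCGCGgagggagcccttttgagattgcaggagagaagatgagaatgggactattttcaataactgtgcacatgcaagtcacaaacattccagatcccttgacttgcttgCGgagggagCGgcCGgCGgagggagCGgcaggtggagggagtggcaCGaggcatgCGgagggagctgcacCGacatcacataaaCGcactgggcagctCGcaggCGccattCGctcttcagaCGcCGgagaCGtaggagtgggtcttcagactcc
MAGEA4: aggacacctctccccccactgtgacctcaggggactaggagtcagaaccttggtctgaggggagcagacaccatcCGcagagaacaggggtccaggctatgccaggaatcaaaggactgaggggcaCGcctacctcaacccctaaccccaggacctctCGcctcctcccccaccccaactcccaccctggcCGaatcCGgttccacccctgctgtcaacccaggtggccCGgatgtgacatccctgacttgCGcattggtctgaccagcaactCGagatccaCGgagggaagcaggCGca
IFI27: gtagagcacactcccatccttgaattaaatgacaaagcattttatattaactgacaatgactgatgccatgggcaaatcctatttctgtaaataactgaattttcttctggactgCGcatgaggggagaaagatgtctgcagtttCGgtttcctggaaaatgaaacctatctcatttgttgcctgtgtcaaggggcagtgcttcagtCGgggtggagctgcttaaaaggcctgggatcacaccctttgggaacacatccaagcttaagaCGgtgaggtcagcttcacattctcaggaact
UCHL1: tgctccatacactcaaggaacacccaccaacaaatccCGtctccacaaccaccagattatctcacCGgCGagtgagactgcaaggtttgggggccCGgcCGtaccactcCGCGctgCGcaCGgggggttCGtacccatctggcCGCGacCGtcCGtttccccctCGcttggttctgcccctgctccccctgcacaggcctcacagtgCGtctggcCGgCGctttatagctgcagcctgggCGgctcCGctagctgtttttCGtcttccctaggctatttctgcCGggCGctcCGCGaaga
KRT12: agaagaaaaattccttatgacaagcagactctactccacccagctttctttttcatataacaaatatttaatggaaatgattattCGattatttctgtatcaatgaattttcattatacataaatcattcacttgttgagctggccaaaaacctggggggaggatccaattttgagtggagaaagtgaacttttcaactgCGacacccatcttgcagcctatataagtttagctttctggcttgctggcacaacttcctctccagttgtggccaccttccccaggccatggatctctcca

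The window of UCHL1 held 25 CG, that of TKTL1 18, that of MAGEA4 10, that of IFI27 4 and that of KRT12 2. The median over all 35116 windows of the table was 14, with quartiles of 4 and 28. The 5 genes therefore ranged from below the lower quartile to near the upper one. TKTL1, MAGEA4 and IFI27 have more than 1 start in the table, with 8 to 18, 10 to 15 and 4 to 6 CG. A comparison of the risen genes with all promoters was void, because 106 of the 149 risen genes (71.1%) have a window, under the 80% needed.

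Of the 54613 probe sets left after the control probe sets were removed, 35373 had a signal of 100 or more on at least 4 of the 8 arrays and were tested. The median signal of the 8 arrays lay between 159.8 and 210.1, and 21.9% to 26.5% of the probe sets were below 50, which was used as the floor before log2 was taken. The colon epithelium markers were bright on every array. EPCAM, the epithelial adhesion molecule, read 35438, 35319, 28197 and 34912 without and 32668, 31843, 32625 and 28158 with 5-aza-dC. Of 10 such markers tested, 0 passed in either direction (over all tested genes 1.01% rose and 0.109% fell). Their median log2 change was 0.02. Their summed signal was 187983 to 232530.05 without and 215937 to 268622 with 5-aza-dC. Defining markers of other cell types were dim, with some exceptions. The leukocyte markers PTPRC, CD14 and LYZ were never above 167, and the endothelial markers CDH5, VWF and KDR never above 122. The summed signal of 6 blood markers was 479 to 1008 without and 506 to 987 with 5-aza-dC, that of 7 fibroblast markers 1252 to 2838 without and 1617 to 4459.95 with 5-aza-dC and that of 4 endothelial markers 313 to 469.7 without and 272 to 486 with 5-aza-dC. Much of these sums came from single members, namely HBB (507, 343, 352 and 174 without and 367, 315, 84.2 and 589.8 with 5-aza-dC), the collagen COL1A1 (1955, 1714, 491 and 843 without and 3518, 2057, 1406 and 940.3 with the drug) and the adhesion molecule PECAM1, which reached 405. None of the 8 markers of these 3 types that were tested passed, but all 4 tested fibroblast markers had changes above 0 (0.32 to 0.70, median 0.53). Their part in the results below was not tested.

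In the linear model, 238 probe sets (0.673% of those tested) were higher with 5-aza-dC and 25 (0.0707%) were lower at an adjusted p under 0.05 (limma, Benjamini-Hochberg), which makes 263 in either direction (0.744%). At an unadjusted p under 0.05 the counts were 2009 and 1753. With 1 probe set for each of 14710 genes, 149 genes rose (1.01%) and 16 fell (0.109%). The counts in gene lists below are given with their share of the genes tested and are to be read against these 2 percentages. The lists were chosen with earlier results of these data known and hold genes that had risen. A share above these percentages is therefore a description and not independent evidence. The rises were also the larger changes. The median log2 change of the risen genes was 1.48, with a range of 0.47 to 7.18, and 22 of them rose by 3 or more. The median of the fallen genes was −0.75 and the largest fall was 2.15. Over all tested genes the median was 0.02. The 4 signals with 5-aza-dC lay entirely above the 4 without it for 116 of the 149 risen genes, where 503 of all tested genes (3.42%) were so separated. They lay entirely below for 9 of the 16 fallen genes, where 242 of all tested genes (1.65%) did. The risen and fallen genes were called on these same signals. Their larger share of separated genes is therefore not independent evidence.

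**Figure D1:**
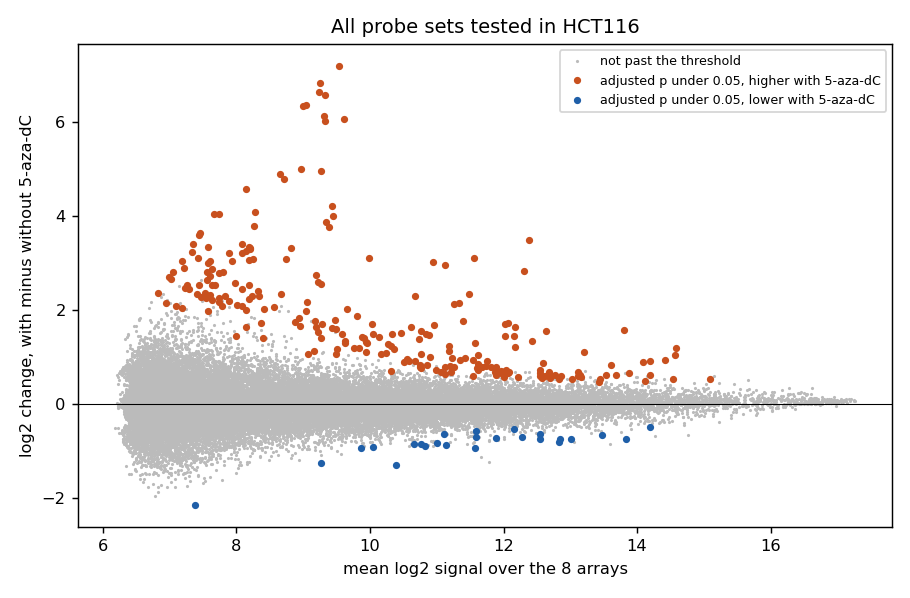
Log2 change with 5-aza-dC (y axis, with minus without) against the mean log2 signal over the 8 HCT116 arrays (x axis) for the 35373 probe sets tested. The 238 probe sets that rose (orange) reach 7.18, while the 25 that fell (blue) reach −2.15, and most rises above 3 are at a mean log2 signal below 10.

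The count depended on single arrays. It was 91 up and 4 down without the 5-aza-dC array, and 799 up and 807 down without the TSA array. Without the control array it was 126 and 2, without the PJ-34 array 147 and 3, and without the PJ-34/5-aza-dC array 145 and 13. Without a trend of the variance on mean signal it was 18 and 1, and without any filter on low signals 2 and 0. In every one of these fits the risen probe sets that were tested kept a log2 change above 0. This is not separate evidence. Leaving out the trend or the filter does not alter the change of a probe set. The other fits reuse most of the arrays on which the probe sets were called.

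Most risen genes were not silent beforehand. The mean signal without 5-aza-dC was 500 or more for 83 of the 149. All 4 arrays without 5-aza-dC were under the floor of 50 for 5 genes, whose log2 changes are therefore lower bounds set by the floor. Another 4 genes also had no such array at 100 or more and passed the filter through the arrays with 5-aza-dC alone, so they could only enter the test by being higher there. Of 3964 probe sets under 50 on all 4 arrays without the drug, 2 reached 250 or more on all 4 arrays with it. These were the probe sets of KRT12 and DKK4. In the opposite direction, 0 of 3958 did.

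**Figure D2:**
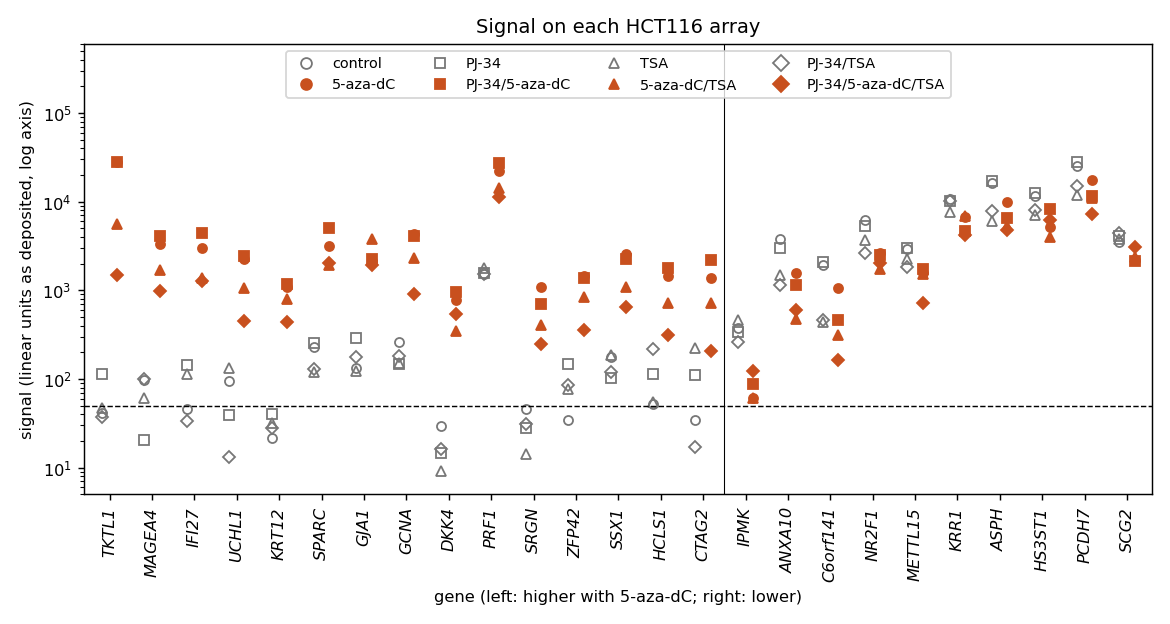
Signal on each of the 8 arrays (y axis, linear units as deposited, on a log axis) for the 15 named genes that rose and the 10 that fell (x axis). Open grey symbols are the arrays without and filled orange symbols the arrays with 5-aza-dC, shapes mark the other drugs, and the dashed line is the floor of 50. The groups are apart for 14 of the 15 risen genes (CTAG2 overlaps), and the filled diamonds of the triple treatment are often the lowest of the 4 orange symbols.

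The cancer-testis genes of the X chromosome, normally expressed in male germ cells and placenta, held the largest rises. Of 22 genes of this list tested, 10 rose (45.5%, against 1.01% of all tested genes) and 0 fell, and the median log2 change of the 22 was 1.75. For 4 of the 22, among them the risen genes MAGEA4, MAGEA8 and PAGE1, no array without 5-aza-dC reached 100, so that they could enter the test only by being higher with the drug. Among the other 18 genes 7 rose, with a median of 1.64. The other 11 genes of the list with a probe set of their own were not tested, which means that no such probe set was at 100 or more on all 4 arrays with 5-aza-dC. TKTL1, a relative of the pentose phosphate enzyme transketolase, read 41.3, 116, 46.6 and 37.1 without and 28199, 27676, 5595 and 1479 with 5-aza-dC. Its log2 change was 7.18 ± 0.50 (adjusted p = 3.91e-06). The treated arrays differed widely among themselves, the triple treatment being the lowest, yet all 4 were far above the highest array without 5-aza-dC. In these bulk extracts a rise in every cell and a larger rise in some of them cannot be told apart. MAGEA4, an antigen of the MAGE family, read 96.7, 20.5, 61.8 and 99.9 without and 3321, 4147, 1680.3 and 973 with 5-aza-dC (log2 change 4.88 ± 0.38). SSX1, a nuclear protein known from fusions in synovial sarcoma, read 177, 102, 189 and 119 without and 2579, 2239, 1090.1 and 642 with the drug (log2 change 3.32 ± 0.33). In both genes the groups were apart and the 2 arrays with TSA were the lower ones among those with 5-aza-dC.

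MAGEA12 differed from these in its starting level. It read 1225, 1449, 1529 and 1676 without and 6764, 8102, 4076 and 2676 with 5-aza-dC, a log2 change of 1.76 ± 0.24. MAGEA8 was under the floor without the drug, at 14, 36.2, 23.4 and 11.4, and read 609, 654, 204 and 186 with it, so its log2 change was at least 2.81. MAGEA11, PAGE1, SSX3 and TEX11 rose by 2.81, 2.45, 2.32 and 2.24. CTAG2, the antigen LAGE-1, read 34.4, 112, 224 and 17 without and 1388, 2228, 729 and 206 with the drug, so the triple treatment lay below the TSA array. Its log2 change of 3.21 ± 0.61 passed (adjusted p = 0.0229), but the call held in 2 of the 8 fits that left out 1 array. MAGEA1 (1.75) and MAGEC2 (1.78) had changes close to that of MAGEA12 and did not pass. Members of these families are close copies, and a probe set of one can take up transcripts of another.

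Several probe sets carry the symbols of more than 1 gene of a family and cannot be given to a single gene. Of 1316 such probe sets tested, 41 rose and 1 fell. Over all 35373 probe sets tested, 0.673% rose and 0.0707% fell, and the counts of shared probe sets are to be read against these shares. The families below were picked from them after the values had been seen. All 4 probe sets of the GAGE genes, small antigens encoded in a tandem array on the X chromosome, rose, with log2 changes of 6.06 to 6.81. The one with the largest change read 72.2, 25, 54.9 and 54.7 without and 15348, 13423, 4789.9 and 1743 with 5-aza-dC. Both probe sets of the CT45 genes rose (4.56 and 4.94), as did all 6 of the SSX genes (2.26 to 4.02), the 1 of the XAGE genes (3.79) and 1 of 2 of the CTAG1 genes (3.33). The GAGE signals fell into the same order among the treated arrays as those of TKTL1, with 5-aza-dC highest and the triple treatment lowest.

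The MAGEA genes were divided. A probe set shared by the 2 MAGEA9 copies read 42.7, 110.1, 220.2 and 30.2 without and 5629, 5056, 1964 and 1133 with 5-aza-dC (log2 change 5.00 ± 0.50). A probe set shared by MAGEA3 and MAGEA6 was already bright without the drug. It read 16659, 17626, 23008 and 23026 without and 23588, 26645, 24257 and 26143 with it. Its groups were apart, but its log2 change of 0.34 ± 0.10 did not pass (adjusted p = 0.213). The 2 probe sets shared by MAGEA2 copies changed by 0.02 and −0.07. A probe set shared by MAGEA5P and LOC100533997 read 429, 710, 627 and 639 without and 1801, 1751, 1457 and 1260.1 with 5-aza-dC. Its log2 change of 1.39 ± 0.20 passed (adjusted p = 0.00348), with groups that were apart.

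Of the germline and meiosis genes on autosomes, 20 were tested and 27 were not. In this list, 2 rose (10.0%, against 1.01% of all tested genes) and 0 fell, with a median log2 change of 0.77. DPPA2, a chromatin factor of early embryos and germ cells, read 141, 10.4, 61 and 44.7 without and 1057, 813, 393 and 288 with 5-aza-dC (log2 change 3.04 ± 0.38, adjusted p = 0.00104). PRAME, an antigen already present in these cells, read 2378, 2319.6, 2539 and 2145 without and 5507, 5047, 3688 and 3131 with the drug (log2 change 0.85 ± 0.14), and its call held in 5 of the 8 fits that left out 1 array. DAZL, an RNA-binding protein of germ cells, read 73.5, 114, 155 and 35.5 without and 1179, 703, 17.6 and 44.7 with 5-aza-dC. It was high on the 2 treated arrays without TSA and under 50 on the 2 with TSA, and its change of 1.25 ± 0.72 did not pass. SYCP3 of the synaptonemal complex had the same order, at 989, 742, 211 and 244 with 5-aza-dC, and did not pass either (log2 change 1.77 ± 0.47).

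Further germline and stem cell genes rose outside these lists. GCNA, a germ cell protein of the X chromosome that acts on DNA-protein crosslinks, read 262, 149, 151 and 183 without and 4349.96, 4056, 2312 and 901 with 5-aza-dC (log2 change 3.76 ± 0.31, adjusted p = 1.66e-05). ZFP42, a zinc finger protein of pluripotent cells also called REX1, read 34.3, 149, 77 and 85 without and 1468, 1362, 834 and 355 with the drug (log2 change 3.39 ± 0.43). In both genes the groups were apart and the triple treatment was the lowest treated array. LIN28B, which blocks maturation of let-7 microRNAs, rose by 3.09, the oocyte protein OOEP by 1.99, KHDC1L by 1.48 and the placental protein PLAC1 by 1.12. These 4 are described from the genes that passed and were not in the naming rule.

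Interferon-stimulated genes changed in part. Of 37 tested, 4 rose (10.8%, against 1.01% of all tested genes) and 0 fell, and the median log2 change was 0.22. IFI27, a mitochondrial protein induced by type I interferon, read 45.5, 145, 115 and 34 without and 3015, 4431, 1392 and 1263 with 5-aza-dC, a log2 change of 4.78 ± 0.40 (adjusted p = 1.86e-05). BST2, the tethering factor that holds budding viruses at the cell surface, read 229.9, 162, 53.1 and 190.01 without and 1328, 1335, 445 and 371 with the drug (log2 change 2.40 ± 0.38). The groups were apart for both genes, and the call of BST2 was lost without the 5-aza-dC array. IFITM1, a membrane protein that restricts virus entry, read 2537, 3059.7, 521 and 306 without and 5658, 6600.4, 1416 and 1058 with 5-aza-dC. It was higher with 5-aza-dC in each of the 4 pairs of arrays that share the other drugs (log2 change 1.37 ± 0.19), but lower with TSA (log2 change −2.56, where 8.99% of probe sets passed the test of TSA in either direction), so that the 2 groups overlapped. PARP10, an ADP-ribosyltransferase, rose by 2.09 ± 0.42, and this call held in 1 of the 8 fits that left out 1 array.

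The other genes of this list differed from these. IFIT1 (0.92), IFI6 (0.86), OAS1 (0.76) and ISG15 (0.65) did not pass, and MX1 (0.10), IFIT2 (−0.18), IFI44 (−0.26) and XAF1 (−0.52) were near or below 0. In double-stranded RNA sensing and interferon signaling, 0 of 17 tested genes passed in either direction, with a median log2 change of 0.17. At 1.01% up and 0.109% down over all tested genes, under 1 called gene would fall in a list of this size. The count of 0 therefore says nothing particular to this list. The RNA sensors RIGI (0.20) and IFIH1 (0.01) and the adaptor MAVS (0.0018) had changes near 0. The largest change was that of IRF7, a transcription factor of the interferon response, at 550.4, 715, 858 and 491 without and 1723, 1895, 893 and 859 with 5-aza-dC (log2 change 0.98 ± 0.25, adjusted p = 0.119). Its groups were apart, but it did not pass. Interferon beta, IFNB1, was not at 100 or more on 4 arrays and was not tested.

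In antigen presentation, 0 of 24 tested genes passed and the median log2 change was 0.14. With 1.01% up and 0.109% down over all tested genes, this count too says nothing particular to the list. Beta-2-microglobulin, B2M, changed by 0.03 and HLA-B by 0.07. The largest change was that of the class II gene HLA-DPA1, at 185, 221, 288 and 230.4 without and 499, 789, 536 and 442 with 5-aza-dC (log2 change 1.28 ± 0.29, adjusted p = 0.0684). For 10 tested genes derived from retroviruses and retroelements the median log2 change was 0.23. Among these, 1 rose (10.0%, against 1.01% of all tested genes) and 0 fell. This was PEG10, an imprinted gene with a retroviral frameshift, at 719.6, 483, 884 and 1307 without and 1795, 1759, 2447 and 1713 with 5-aza-dC (log2 change 1.26 ± 0.21). Its call was lost without the control array and without the 5-aza-dC array.

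Of the genes known to be methylated in colorectal cancer, 23 were tested, of which 3 rose (13.0%, against 1.01% of all tested genes) and 0 fell, with a median log2 change of 0.30. SPARC, a glycoprotein of the extracellular matrix, read 231, 257, 121 and 131 without and 3145, 5035, 1909 and 2043 with 5-aza-dC. Its log2 change of 4.001 ± 0.20 (adjusted p = 3.26e-07) was nearly equal in the 4 pairs of arrays, from 3.77 to 4.29. UCHL1, a ubiquitin hydrolase abundant in neurons, read 94.6, 39.7, 134 and 13.3 without and 2239, 2442, 1056 and 456 with the drug (log2 change 4.08 ± 0.41). VIM, the intermediate filament protein of mesenchymal cells, read 826, 725, 959 and 722 without and 9208, 11935, 4591 and 3010.1 with the drug (log2 change 2.96 ± 0.27). In all 3 genes the groups were apart. SFRP1 (1.27), NDRG4 (1.05), IRF8 (1.30) and ADHFE1 (1.21) had changes above 1 and did not pass.

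The tumor suppressor CDKN2A read 5214, 6048, 6568 and 5595 without and 5469, 7006, 5629 and 6285 with 5-aza-dC, a log2 change of 0.06 ± 0.12. RASSF1 (0.15), MGMT (−0.17) and APC (0.22) did not pass either. The other 24 genes of the list were not tested. They include SFRP2, SFRP4, SFRP5, WIF1, SOX17, GATA4, GATA5 and TFPI2, none of which was at 100 or more on all 4 arrays with 5-aza-dC.

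Of the 20 intermediate filament genes tested, 5 rose (25%, against 1.01% of all tested genes) and 0 fell (median 0.40). Without KRT12, which passed the filter through the arrays with 5-aza-dC alone, 4 of 19 rose and the median was 0.37. The 5 were VIM and 4 keratins. KRT20, the keratin of differentiated intestinal epithelium, read 396, 317, 258 and 443 without and 2881, 3566, 2621 and 2814 with 5-aza-dC (log2 change 3.09 ± 0.19, adjusted p = 1.07e-06). KRT23 read 2677, 2998, 2317 and 2199.9 without and 7479.7, 6660.2, 7163 and 6234 with the drug (log2 change 1.44 ± 0.12). KRT12, the keratin of the cornea, was under the floor at 21.4, 40.2, 32.3 and 28.2 and read 1079, 1179.95, 802 and 440.2 with the drug, a log2 change of at least 4.03. The treated arrays of KRT20 and KRT23 were close to each other with and without TSA, unlike those of KRT12. KRT13, of stratified epithelium, read 16.1, 18.1, 215 and 209 without and 496, 679, 609.9 and 688 with the drug (log2 change 2.57 ± 0.40), and was also higher on the 2 arrays that held TSA without 5-aza-dC. KRT8 (0.51, adjusted p = 0.0517) and KRT18 (0.33), the keratins of simple epithelium, did not pass.

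Besides KRT20, no gene of intestinal differentiation passed as risen. Of 20 tested genes of intestinal differentiation 1 rose (5.00%), 1 fell and 18 did not pass. Over all tested genes, 1.01% rose and 0.109% fell. The median log2 change of the 20 was 0.11 (0.04 without LGALS4, which had no array without 5-aza-dC at 100). The transcription factor CDX2 read 51.2, 52.2, 59.3 and 136 without and 98.6, 222, 205 and 196 with 5-aza-dC (log2 change 1.34 ± 0.48, adjusted p = 0.308). LGALS4 (1.69), whose groups were apart, TFF2 (1.26) and VIL1 (−1.21) did not pass.

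Among 26 matrix and mesenchyme genes tested, 4 rose (15.4%, against 1.01% of all tested genes) and 0 fell (median 0.32). Besides SPARC these were COL6A3, COL6A1 and LOXL2. COL6A3, a chain of type VI collagen, read 256, 179.9, 183 and 57.6 without and 1724, 1667, 1069 and 785 with 5-aza-dC (log2 change 3.07 ± 0.28). COL6A1, another chain, rose by 0.72 ± 0.13 by its brightest probe set, but this call held in 2 of the 8 fits that left out 1 array, and 2 of its other 6 probe sets had changes below 0. LOXL2, a lysyl oxidase that cross-links collagen, rose by 0.67 ± 0.14, and its call held in 1 of the 8. The fibroblast genes COL1A1 (0.70), TAGLN (−0.82) and MMP2 (−1.15) did not pass. The sum of the 7 fibroblast markers given above had overlapping ranges, and its 4 tested members all had changes above 0 without passing.

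Some genes of blood cells rose. Of 19 tested, 4 rose (21.1%, against 1.01% of all tested genes) and 0 fell, with a median log2 change of 0.58. For SRGN and CD52 no array without 5-aza-dC reached 100, and without these 3 of 17 rose, with a median of 0.31. The summed blood markers given above overlapped between the groups, with HBB the brightest of them. PRF1, the pore-forming protein perforin of cytotoxic lymphocytes, read 1516, 1559, 1793 and 1530.4 without and 22301, 27259.8, 14382 and 11209 with 5-aza-dC, a log2 change of 3.47 ± 0.19 (adjusted p = 3.26e-07). SRGN, the proteoglycan serglycin of secretory granules, was under the floor at 45.9, 27.9, 14.2 and 31.4 and read 1101, 705, 405 and 249.8 with the drug, a log2 change of at least 3.40. HCLS1, an actin regulator of hematopoietic cells, read 52.1, 113, 55.5 and 217 without and 1446, 1796, 727 and 314 with the drug (log2 change 3.26 ± 0.52). The groups were apart for all 3 genes, and the call of HCLS1 was lost without the 5-aza-dC array. LAPTM5, a lysosomal protein of leukocytes, rose by 2.10 ± 0.40, a call that held in 2 of the 8 fits that left out 1 array. TYROBP (2.09), CORO1A (1.90) and CD52 (1.65) had groups that were apart and did not pass.

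Alpha-globin, the oxygen carrier subunit of red cells, also rose. All 6 probe sets shared by the 2 alpha-globin copies rose, by 1.34 to 2.29, against 0.673% of all probe sets tested. This family too was picked after the values had been seen. The groups were apart for 2 of these 6 and overlapped for 4. One of the 2, with a change of 1.77 ± 0.28, read 466, 404, 548 and 210.4 without and 1943, 2206, 818 and 847 with 5-aza-dC. One of the 4, with the largest change of all 6 (2.29 ± 0.40), read 292, 80.3, 167 and 87.3 without and 1172, 1377, 499 and 245 with the drug. The beta-globin gene HBB changed by −0.22 ± 0.49 and did not pass.

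Replication-dependent histone genes were noticed after the values had been seen. Of 27 tested, 25 of them on chromosome 6, 7 rose (25.9%, against 1.01% of all tested genes) and 0 fell, with a median log2 change of 0.39. As the group was picked for its rises, nothing is read from this share. H1-2, a linker histone, read 1215, 1434, 1114 and 1144 without and 6831, 8503, 4394 and 3389 with 5-aza-dC, a log2 change of 2.15 ± 0.17 (adjusted p = 1.26e-05). H2BC12 read 6861, 7284, 9831 and 9612 without and 23260.4, 31482, 25690.00 and 19729 with the drug (log2 change 1.57 ± 0.15). H2BC9 (1.42), H2BC21 (1.40), H2BC5 (1.32), H2AC6 (1.23) and H2BC6 (1.12) also rose, and the groups were apart for all 7. H2AC15 (−0.62) and H2BC15 (−0.96) had the most negative values and did not pass. Of 15 probe sets shared by several histone genes, 3 rose and 0 fell, where 0.673% of all probe sets tested rose and 0.0707% fell. The genes are close copies, so the signal of one may include others. Of the replication and mitosis genes, none of the 41 tested passed, the median was 0.00, and MKI67 changed by 0.03 and PCNA by 0.23. With 1.01% up and 0.109% down over all tested genes, under 1 called gene would fall in this list, so its count says nothing particular.

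Tubulins, also noticed after the values were seen, had 3 rises (25%, against 1.01% of all tested genes) and 0 falls among 12 tested. Their median log2 change was 0.41, and as this group too was picked for its rises, nothing is read from this share. TUBA1A read 10516, 11299.6, 27522 and 25055 without and 25939, 45665, 32421 and 38259 with 5-aza-dC (log2 change 1.04 ± 0.21), TUBB2A rose by 0.91 and TUBB6 by 0.65. The 2 arrays without 5-aza-dC that held TSA were higher than the control for all 3. The groups were apart for TUBB2A and overlapped for TUBA1A and TUBB6.

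Among the remaining named risers, GJA1, the gap junction protein connexin 43, read 134, 289, 123 and 177 without and 2155, 2273, 3839 and 1957 with 5-aza-dC (log2 change 3.85 ± 0.30, adjusted p = 9.82e-06). Its highest array was 5-aza-dC/TSA, as for 13 of the 149 risen genes. DKK4, a secreted antagonist of Wnt signaling, was under the floor at 29.3, 14.8, 9.27 and 16.4 and read 786, 969.6, 345 and 544 with the drug, a log2 change of at least 3.62. Of other secreted Wnt antagonists, SFRP1 is given above, and DKK1 read 23015, 17295, 22073 and 20210.3 without and 30693, 29050.3, 25629 and 20226 with the drug (log2 change 0.35 ± 0.11), which did not pass.

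Several genes outside the naming rule rose from higher starting levels. They were picked after their values had been seen. SUSD2, a membrane protein, read 1205, 693, 1345 and 983 without and 10704, 12595, 7811 and 5812 with 5-aza-dC (log2 change 3.11 ± 0.21). AQP3, a water and glycerol channel of epithelia, rose by 2.32 ± 0.21, and APOBEC3G, a cytidine deaminase that restricts retroviruses, by 2.73 ± 0.24. TXNIP, an inhibitor of thioredoxin, read 77.9, 114, 143 and 175 without and 1641, 861, 495 and 348 with the drug (log2 change 2.52 ± 0.44). DHRS2, a mitochondrial reductase, was higher with either drug. It read 626, 806, 4347 and 5871 without and 7126, 8149, 26046 and 21415 with 5-aza-dC, with log2 changes of 2.82 with 5-aza-dC and 2.23 with TSA. The smaller rises included bright genes of signaling and adhesion, such as the growth factor receptor EGFR (0.56), the phosphatase DUSP6 (0.62), the transcription factor SOX9 (0.61), the tetraspanin CD9 (0.48) and the desmosome protein DSP (0.52).

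The falls were fewer and smaller. Of the 16 fallen genes, 15 had a mean signal of 500 or more without 5-aza-dC, and 3 fell by 1 or more on the log2 scale. IPMK, a kinase of inositol phosphates, read 376, 336, 465 and 262 without and 60.7, 87.9, 60.5 and 122 with 5-aza-dC (log2 change −2.15 ± 0.41, adjusted p = 0.024), with groups that were apart. ANXA10, an annexin of gastric epithelium, read 3802, 2971, 1491 and 1147 without and 1571, 1157, 477 and 607 with the drug (log2 change −1.30 ± 0.17). It was also lower with TSA (log2 change −1.34), so that its groups overlapped while each pair fell. NR2F1, a nuclear receptor also called COUP-TF1, read 6198, 5349, 3654 and 2665 without and 2626, 2513, 1727 and 2027 with the drug (log2 change −0.95 ± 0.14), with groups that were just apart.

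SCG2, the granule protein secretogranin, read 3468, 4092, 3801 and 4412 without and 2176, 2118, 2404 and 3062 with 5-aza-dC (log2 change −0.70 ± 0.12). The ribosome assembly factor KRR1 fell by 0.81, the mitochondrial methyltransferase METTL15 by 0.90, the hydroxylase ASPH by 0.75, the heparan sulfate enzyme HS3ST1 by 0.75, the protocadherin PCDH7 by 0.75 and C6orf141 by 1.26. These calls were fragile. Of the 8 fits that left out 1 array, ANXA10 passed in 8, NR2F1 in 7, HS3ST1 in 6, SCG2 in 5, IPMK in 4, METTL15 in 3 and the other 4 genes in 2 each. For METTL15, KRR1, HS3ST1 and PCDH7, 1 or 2 other probe sets of the gene had changes above 0.

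The RNA levels of the targets of the drug and of the enzymes that handle it were examined next. None of 14 tested genes of DNA methylation and demethylation passed, with a median log2 change of −0.03. DNMT1, the maintenance methyltransferase, read 9306, 9838, 10119.7 and 9879 without and 8799.8, 10572, 9157 and 10433 with 5-aza-dC, a log2 change of −0.01 ± 0.10. The de novo enzymes DNMT3A and DNMT3B changed by −0.01 and −0.06, and UHRF1, which brings DNMT1 to replicated DNA, by 0.15. Among 18 genes of deoxycytidine uptake and metabolism 0 passed, with a median of 0.02. At 1.01% up and 0.109% down over all genes, under 1 called gene would fall in lists of this size, so these counts say nothing particular to the lists. DCK, the kinase that activates the drug, read 4126, 4104, 4178 and 4320.2 without and 3406, 3215, 4013 and 3461 with it. These groups were apart, but the change of −0.25 ± 0.11 did not pass (adjusted p = 0.44). CDA, the deaminase that inactivates it, changed by 0.50 and the transporter SLC29A1 by 0.09. The intervals implied by these standard errors are for 4 arrays against 4, and small changes would not have been called.

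In 2 stress pathways 1 gene each passed. Of 29 p53 targets tested, 1 rose (3.45%, against 1.01% of all tested genes). It was PLK2 (0.59 ± 0.13), a call that held in 2 of the 8 fits that left out 1 array, and 0 fell (median 0.16). CDKN1A, the cell cycle inhibitor p21, read 8224, 9239, 19191 and 22142 without and 11767, 14498, 19906 and 22878 with 5-aza-dC (log2 change 0.32 ± 0.11), which did not pass. It was higher on every array with TSA. In the integrated stress response, 1 of 28 rose (3.57%, against 1.01% of all tested genes) and 0 fell. Of the 28, 23 had changes below 0 (median −0.35). The 1 that rose was CTH, an enzyme of cysteine synthesis (0.72 ± 0.14), whose call held in 3 of the 8 fits.

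SLC7A11, the cystine transporter, read 13522, 13452, 1689 and 2749 without and 4742, 1891, 2044 and 1508 with 5-aza-dC (log2 change −1.23 ± 0.34, adjusted p = 0.153), and ASNS, asparagine synthetase, read 52339.5, 57366, 12488 and 10531 without and 27029.8, 17832, 10296 and 11526 with the drug (log2 change −0.70 ± 0.21). In both genes the control and PJ-34 arrays were far above the other 6, and neither passed. All 8 metallothioneins tested had changes below 0 (median −0.27), and 0 passed, where 1.01% of all tested genes rose and 0.109% fell. MT1H, with the smallest p, read 11982, 10559.9, 10559 and 10265 without and 8049, 8166, 7265 and 9678 with the drug (log2 change −0.39 ± 0.11, adjusted p = 0.17). Of 19 imprinted genes tested, PEG10 and CDKN1C rose (10.5%, against 1.01% of all tested genes) and 0 fell (median 0.04). CDKN1C, another cell cycle inhibitor, rose by 0.77 ± 0.16 and held its call in 1 of the 8 fits. Of the genes that the study names, 6 were tested, UCHL1 rose, and the median was 0.32. The study picked some of these on the same arrays, so the count is not independent evidence. It names UCHL1 among genes reactivated in RKO cells, whose arrays are not part of this comparison.

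**Figure D3:**
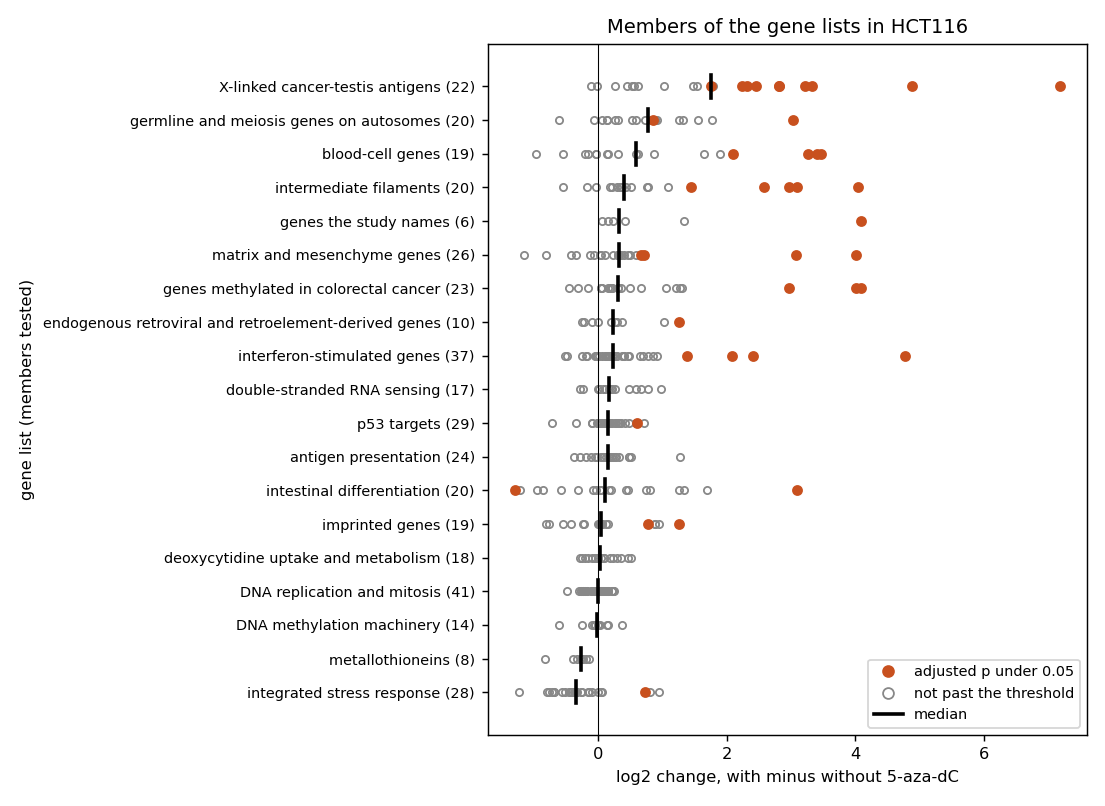
Log2 change with 5-aza-dC (x axis) of each tested member of the 19 gene lists (y axis, with the number of members tested), ordered by the median of the list (black bar). Filled orange points passed at an adjusted p under 0.05 and open grey points did not. The X-linked cancer-testis list has the highest median (1.75) and the integrated stress response the lowest (−0.35).

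The effect of 5-aza-dC was also read in the 4 pairs of arrays that differ in this drug alone. The median log2 difference of the 149 risen genes was 1.59 with no other drug, 1.70 with PJ-34, 1.31 with TSA and 0.99 with PJ-34 and TSA. The direction was the same in all 4 pairs for all 149 genes, as it was for 15 of the 16 fallen genes. These genes were called on the mean of the same 4 differences, so the shared direction is not separate evidence. For all tested genes the medians of the pairs lay between −0.03 and 0.06. The triple treatment was the lowest of the 4 treated arrays for 84 of the 149 risen genes (56.4%), against 25.1% of all tested genes. PJ-34/5-aza-dC was the highest for 83 (55.7%), against 25.9% of all tested genes.

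The difference was larger in the pairs without TSA than in those with TSA for 121 of the 149 risen genes (81.2%), where this held for 61.3% of all tested genes. TKTL1 differed by 9.14 with no other drug, 7.90 with PJ-34, 6.81 with TSA and 4.89 with both. HCLS1 differed by 4.79 with no other drug, 3.995 with PJ-34, 3.71 with TSA and 0.53 with both, so that the last pair was far below the others. SPARC and KRT23 kept their size across the pairs, KRT23 at 1.48 with no other drug, 1.15 with PJ-34, 1.63 with TSA and 1.503 with both. No gene passed a test of the interaction. For 5-aza-dC with TSA, 0 of 35373 probe sets passed (0%), the smallest adjusted p was 0.44 and 1902 were under 0.05 unadjusted. For 5-aza-dC with PJ-34, 0 passed, the smallest adjusted p was 0.126 and 3298 were under 0.05 unadjusted. The interaction of TKTL1 with TSA was −2.68 ± 0.72 and that of VIM −1.60 ± 0.32 on the log2 scale, both with adjusted p above the threshold (0.859 and 0.672). With 1 array left out, the count of TSA interactions was 0 to 2 and that of PJ-34 interactions 0 to 472, the latter without the control array and 209 without the triple treatment.

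**Figure D4:**
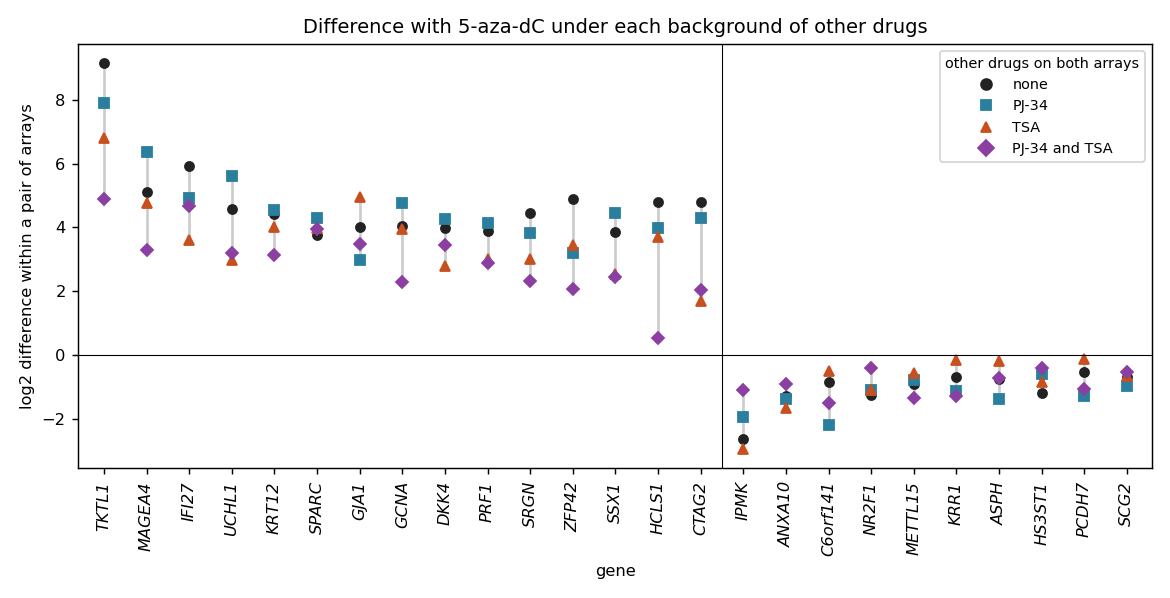
Log2 difference with 5-aza-dC (y axis) within each of the 4 pairs of arrays that share the other drugs, for the 15 named genes that rose and the 10 that fell (x axis). Colors and shapes mark the drugs present on both arrays of a pair and the grey line joins the lowest to the highest. TKTL1 ranges from 4.89 to 9.14, and SPARC from 3.77 to 4.29. That every pair has the sign of its gene follows from the rule by which these genes were chosen.

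The risen genes were spread over the chromosomes. By the RefSeq table, 15 of the 480 tested genes of the X chromosome rose (3.12%), 5 of 165 on chromosome 21 (3.03%) and 17 of 770 on chromosome 6 (2.21%), against 1.01% of all tested genes. The X chromosome thus held 10.1% of the risen genes and 3.27% of the tested ones. Of its 15 genes, 10 are members of the cancer-testis list above, which was chosen with earlier results known. Of the 17 on chromosome 6, 6 are histone genes. On chromosome 16, 1 of 654 rose (0.153%). These shares are descriptions, since neighboring genes and family members are not independent.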

How the data were processed

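RNA was hybridized to Affymetrix U133 Plus 2.0 arrays, 1 for each treatment. The values are linear signal intensities that the authors made with GCOS, for which no version was found, and deposited after scaling (trimmed mean of the 8 arrays 1000.14 to 1000.16). No further normalization was applied, detection calls were not used, and the number of arrays limits the precision.

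Groups came from the deposited labels. Signals under 50 were set to 50, and probe sets at 100 or more on at least 4 of the 8 arrays were kept. The log2 values were fitted in R 4.3.3 by limma 3.58.1, with terms for the 3 drugs and a variance trend, and Benjamini-Hochberg adjusted p was read at 0.05. The 2 interactions were tested in separate models, each with the 3 drug terms and only its own product. Each residual therefore kept the other interaction. The fit was tested on simulated data, and tables were made with Python 3.11.15 and pandas 2.3.3.

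Gene names came from the platform annotation (41091 probe sets with 1 symbol, 1801 with several, 11721 with none). RefSeq (GRCh38.p14) gave current names, chromosomes and promoters. The probe set with the highest mean log2 signal represents a gene. Named were the 15 largest rises and 10 largest falls that passed, with the same direction in all 4 pairs and a mean of 200 or more in the higher group, the 4 smallest p of each of 19 lists, the DNA methyltransferases, UHRF1 and genes the study names. Other members of the lists are given as values. The lists and the rule were chosen with earlier results of these data known.

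Alternatives were other floors, filters, scalings, variance moderation and drug terms, a fit of all 16 arrays, other probe sets of a gene and leaving out each array.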

Additional observations from a re-analysis of the deposited data

How the results depend on the processing

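Against 238 probe sets up and 25 down, no filter gave 2 and 0, no filter without the probe sets at or under the floor on all arrays (added after seeing the data) 95 and 5, no variance trend 18 and 1, no other drug terms 115 and 1, and the pairs of arrays as a block 209 and 16. Leaving out 1 array gave 91 to 799 up and 2 to 807 down. For the interactions with TSA and with PJ-34, where 0 passed, it gave 0 to 2 and 0 to 472. The other fits, with other floors, a stricter filter, quantile normalization, median centring, robust moderation or all 16 arrays, stayed within 1.5 times both counts. A similar count did not mean the same calls. With all 16 arrays 175 probe sets were up, and 131 of these were among the 238. The cause of the differences between fits was not tested. Of 42 named genes that passed, 17 were tested and passed in all 8 fits that left out 1 array, and 4 more passed in each such fit that tested them. Only 1 of the 42 passed with no filter (23 when probe sets at or under the floor on all arrays were also left out), 6 with no variance trend, 21 with no other drug terms, 28 with all 16 arrays and 35 to 42 in the other fits of all 8 arrays. TKTL1, UCHL1 and VIM were among those lost with no filter and with no variance trend. None of the 42 changed direction in these fits. The fits reuse the arrays on which the genes were called, so this is not separate evidence. Other probe sets of 5 of these genes had the opposite direction and did not pass, at −0.074 and −0.31 for COL6A1, 0.66 and 0.93 for METTL15, 0.22 for KRR1, 0.69 for HS3ST1, and 0.076 and 0.38 for PCDH7. The block above is of pairs of treatments, since every array is labelled replicate 1 and the number pairs no arrays. Signals near the floor limit what can be said of genes that were dim on most arrays.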
